A study of Rattus norvegicus with 6 samples.

Results

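Messenger RNA levels in the left ventricle were compared between rats given a Western diet supplemented with docosahexaenoic acid (Western plus DHA) and rats given the Western diet without it (Western). The comparison rests on 4 of the 6 expression arrays of the study, 2 per diet, and the other 2 arrays, from rats on a control diet (Control), are set beside it. All animals were male Wistar rats, started on their diet at 6 weeks of age, kept on it for 12 weeks and studied at 18 weeks of age after a night without food. Each diet had 10 rats, and RNA was hybridised from 2 pooled samples per diet, each of 5 rats. The labels do not state that each array of a diet held a different pool, so the spread between them, which every error and p-value below rests on, may be that between pools or may be technical, and it is not the spread between animals. No source used here gives the composition of the diets or the dose of docosahexaenoic acid. The stated aim of the feeding was to enlarge the left ventricle with few accompanying disorders, and the data hold no measure of heart weight. The question addressed here is what the added fatty acid did to ventricular gene expression on a Western diet background.

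Docosahexaenoic acid is the long-chain omega-3 fatty acid of fish oil and is built into the phospholipids of heart muscle membranes. Fatty acids and their derivatives are ligands of the peroxisome proliferator-activated receptors (PPARs), which switch on genes for fatty acid uptake, oxidation and handling, and polyunsaturated fatty acids are also known to dampen the sterol regulatory factors that drive desaturases and lipid synthesis. A ventricle under load re-expresses genes of the fetal heart, among them the slow beta myosin heavy chain Myh7 and the natriuretic peptides Nppa and Nppb. The adult rat ventricle uses mainly the fast alpha myosin heavy chain, Myh6.

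The values are log2 expression levels made by the robust multi-array average (RMA), and a difference of 1 on this scale is a doubling of signal. The 6 arrays had medians between 5.33 and 5.36. Across probe sets the 2 arrays of a diet correlated at 0.993 for Western plus DHA, 0.996 for Western and 0.993 for Control, a description over probe sets of 1 tissue. The control probe sets for the 3′ and 5′ ends of actin differed by 1.87 and 1.52 in Western plus DHA, against 1.48 and 1.54 in Western and 1.82 and 1.49 in Control, so the first array of Western plus DHA and that of Control stood apart in this measure of RNA quality. Errors below are standard errors of a difference in a limma fit of all 6 arrays, with n = 2 arrays per diet, and their median was 0.144. At an adjusted p under 0.05 (Benjamini-Hochberg over all probe sets) limma called 0 of 31042 probe sets, or 0.0%, and 1261 (4.06%) had an unadjusted p under 0.05, of which 619 (1.99%) were higher and 642 (2.07%) lower in Western plus DHA. For a single probe set, an exact two-sided permutation test of 2 arrays against 2 cannot give a p under 0.333, so the order of the 4 arrays is given as a description.

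Both Western plus DHA arrays lay above both Western arrays for 19.5% of probe sets and below both for 16.0%, and with a difference of at least 0.5 as well for 0.341% and 0.728%. Of 14217 genes, each represented by the probe set with its highest mean level, 20.9% had both Western plus DHA arrays higher and 15.9% had both lower. Of these genes 53.3% had a difference above 0, and 2.06% were higher and 1.46% lower with an unadjusted p under 0.05. With arrays that did not overlap and a difference of at least 0.5, there were 59 genes (0.415%) with higher and 72 (0.506%) with lower values in Western plus DHA. The middle 50% of genes is bounded by differences of -0.10 and 0.11, and the central 90% by -0.30 and 0.27. Of the 101 named genes 84 lay outside the band and 17, Myh6, Fasn, Cd36 and Pdk4 among them, lay inside it.

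**Figure D1:**
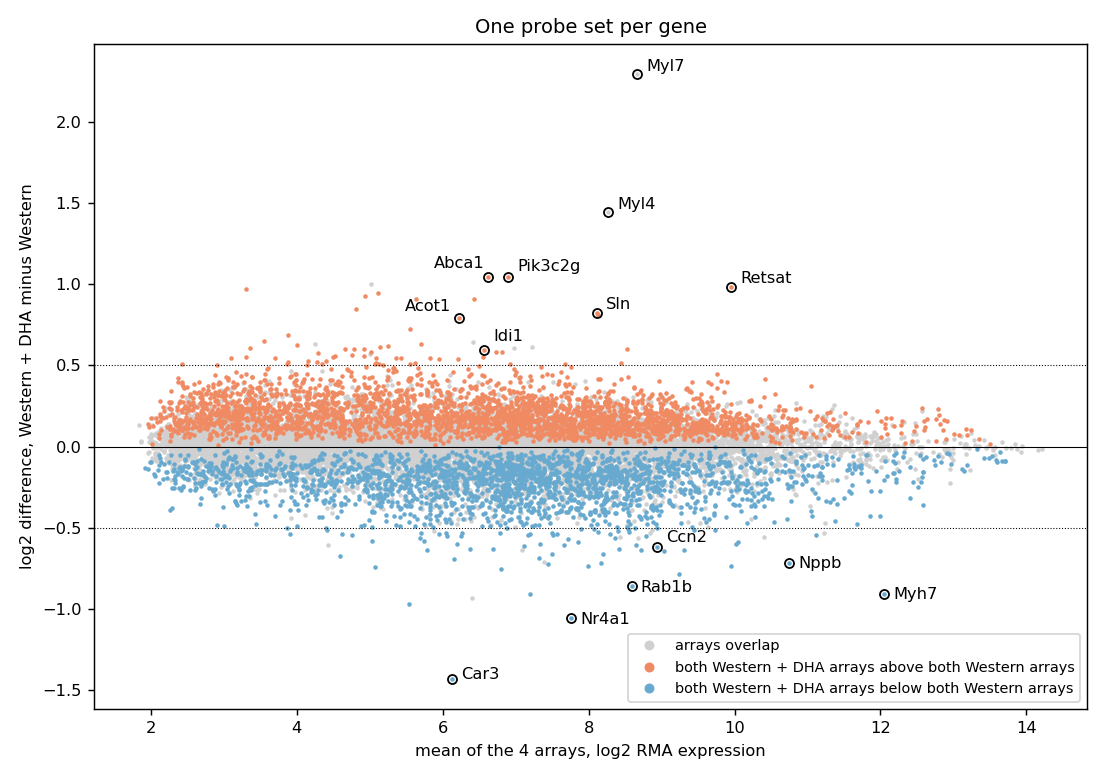
Log2 difference (Western plus DHA minus Western, vertical axis) against the mean log2 level of the 4 arrays (horizontal axis) for 14217 genes. Colours mark genes whose arrays do not overlap, dotted lines mark differences of 0.5, and Car3, Nr4a1, Myh7, Rab1b, Nppb and Ccn2 lie lowest among the labelled genes while Myl7 and Myl4, whose arrays overlap, lie highest.

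The lowest adjusted p of the comparison belonged to Myh7, the slow myosin heavy chain of the fetal and loaded ventricle. Its dimmer probe set had log2 levels of 8.20 and 7.95 in Western plus DHA, against 9.67 and 9.60 in Western and 10.10 and 9.97 in Control. The difference between Western plus DHA and Western was -1.56 ± 0.14, a level 2.94-fold lower, with a limma adjusted p of 0.0740. The brighter probe set had 11.75 and 11.45 in Western plus DHA, against 12.55 and 12.47 in Western and 12.66 and 12.52 in Control, a difference of -0.91 ± 0.14 and a level 1.87-fold lower. In both probe sets the 2 Western plus DHA arrays lay below the other 4 arrays. Western and Control differed by -0.40 for the dimmer and -0.09 for the brighter probe set.

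The dimmer Myh7 probe set did not pass the test as set, and it passed under 4 of the other settings tried, with adjusted p of 0.0454 after quantile normalization again, 0.0487 after median centring, 0.0286 with an intensity trend and 0.0332 with array weights. It did not pass with a replicate block, after cyclic loess, without dim probe sets or with the 4 arrays alone. The lowest limma adjusted p of any probe set there was 0.0790, 0.0799, 0.104 and 0.345. Against Control, with the same Western plus DHA arrays, the dimmer Myh7 probe set differed by -1.96 with an adjusted p of 0.0119, 1 of 31042 probe sets (0.00322%) called there. The adjusted p of the brighter probe set was 0.983 against Western. Myh6, the fast myosin, had 13.65 and 13.70 in Western plus DHA, against 13.65 and 13.65 in Western and 13.52 and 13.65 in Control, a difference of 0.03 ± 0.12 with overlapping arrays. Its dimmer probe set read 11.46 and 11.28 in Western plus DHA, against 11.77 and 11.80 in Western, a difference of -0.41 ± 0.18. Myh6 and Myh7 are close paralogs, so signal shared between their probes cannot be told apart here.

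Other genes of cardiac load and growth had both Western plus DHA arrays lower. Nppb, which encodes the B-type natriuretic peptide that the ventricle secretes when its wall is stretched, had 10.14 and 10.64 in Western plus DHA, against 10.94 and 11.27 in Western and 10.79 and 10.75 in Control. Its difference was -0.72 ± 0.19, and both Western plus DHA arrays lay below the other 4. Ankrd23, an ankyrin repeat protein that sits on titin's elastic part, had 6.83 and 7.23 in Western plus DHA, against 7.59 and 7.67 in Western and 7.85 and 7.94 in Control, a difference of -0.60 ± 0.15. Ccn2, the connective tissue growth factor, belongs to a list of 19 CCN and TGF-beta genes, of which 9 lay below 0, with a median of 0.02. In that list 3 (15.8%) had both arrays lower and 1 (5.26%) both higher, against 15.9% and 20.9% of all genes. Ccn2 had 8.72 and 8.54 in Western plus DHA, against 9.07 and 9.43 in Western and 9.67 and 9.55 in Control, a difference of -0.62 ± 0.16. For Ankrd23 and Ccn2, too, the 2 Western plus DHA arrays were the lowest of the 6. None of the 3 genes passed the test, each with an adjusted p of 0.983.

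The RefSeq promoters (assembly GRCr8, windows of 300 bases that end 50 bases after the annotated start) of Nppb, Ankrd23 and Ccn2 are shown. Other genes were lower on the same arrays too and are not shown, so the 3 windows do not stand for the lower genes. The Myh7 window is not shown, since an ATG that opens the myosin reading frame follows its annotated start within a few bases and the window need not be the promoter. Capitals mark the M-CAT element, CATTCC on either strand (GGAATG when it lies on the other strand), which TEAD transcription factors bind in muscle genes. The windows are chr5:163699758-163700057 on the plus strand for Nppb, chr9:46274461-46274760 on the minus strand for Ankrd23 and chr1:22624565-22624864 on the minus strand for Ccn2.
Nppb: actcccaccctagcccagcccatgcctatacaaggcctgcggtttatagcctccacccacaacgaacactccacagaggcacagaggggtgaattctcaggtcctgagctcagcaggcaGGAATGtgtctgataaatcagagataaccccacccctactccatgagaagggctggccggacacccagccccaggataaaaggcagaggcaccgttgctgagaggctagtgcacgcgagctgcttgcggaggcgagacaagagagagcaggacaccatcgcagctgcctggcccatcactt
Ankrd23: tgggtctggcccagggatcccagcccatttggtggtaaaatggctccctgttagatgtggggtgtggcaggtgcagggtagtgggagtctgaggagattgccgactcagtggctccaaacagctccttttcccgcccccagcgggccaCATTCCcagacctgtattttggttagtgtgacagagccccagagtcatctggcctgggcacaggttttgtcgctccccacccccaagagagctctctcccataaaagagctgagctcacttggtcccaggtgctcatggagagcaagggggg
Ccn2: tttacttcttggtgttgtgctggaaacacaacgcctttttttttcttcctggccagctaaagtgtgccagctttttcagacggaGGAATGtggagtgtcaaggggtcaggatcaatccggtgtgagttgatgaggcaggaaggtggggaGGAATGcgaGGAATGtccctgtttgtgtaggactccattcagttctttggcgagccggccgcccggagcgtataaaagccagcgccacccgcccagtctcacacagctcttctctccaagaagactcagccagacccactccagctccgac
Nppb held 1 match, starting at -131 from the start, Ankrd23 held 1 at -102 and Ccn2 held 3 at -166, -101 and -92. Of 33469 RefSeq promoters of this length 14.2% held a match, and of the hypertrophic list 3 of the 15 genes with a window did (Acta1, Ankrd23 and Nppb). Srf and Rcan1, members of that list that were also lowest in Western plus DHA, are not among the genes with a match. Over all gene lists the share with a match ran from 0.0%, as in the acyl-CoA thioesterases, to 60.0%, in the erythroid markers. Pik3c2g, which was higher in Western plus DHA, held a match too, so a match was not particular to lower genes. A match is a description of the letters and not a binding site.

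**Figure D2:**
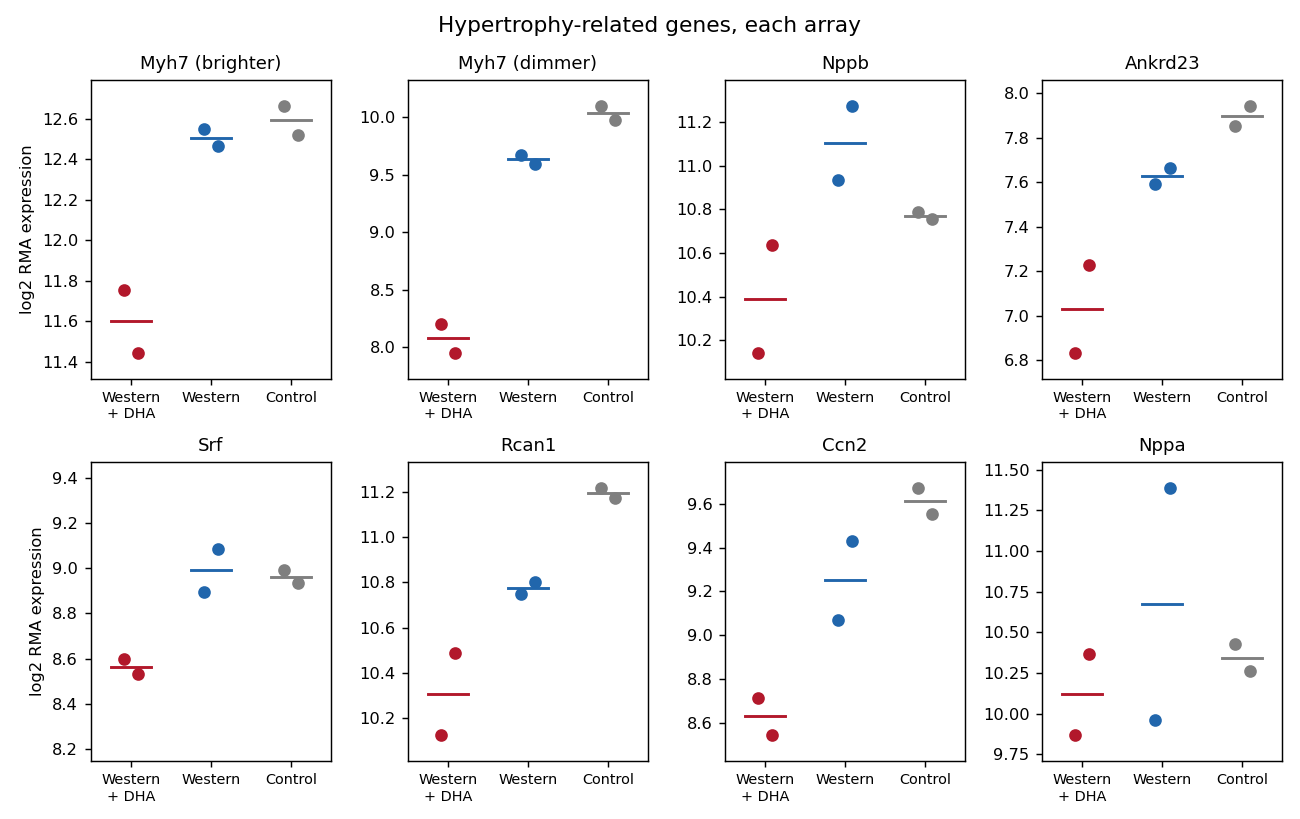
Log2 RMA level of each array (points; the left point of a diet is array 1) with the mean of the diet (line) for hypertrophy-related genes, Western plus DHA on the left, then Western and Control. For both Myh7 probe sets, Nppb, Ankrd23, Srf, Rcan1 and Ccn2 the 2 Western plus DHA arrays lie below the 2 Western arrays, while for Nppa they overlap.

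In a list of 20 hypertrophic and fetal genes, all measured, 18 lay below 0 and 2 above, where 46.7% of all genes lay below 0. Both Western plus DHA arrays were below both Western arrays for 12 members, against 15.9% of all genes, and above for 0. The median difference was -0.31, against 0.01 for all genes, and it ran from -0.33 to -0.21 when any 1 of the 4 arrays was left out. Unadjusted p under 0.05 was met by 5 members, all lower (background 1.46%), and 0 members passed the adjusted test. Beside Myh7, Nppb and Ankrd23 these were Srf, a transcription factor of contractile genes, and Rcan1, a calcineurin inhibitor that calcineurin itself induces.

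Srf had 8.60 and 8.53 in Western plus DHA, against 8.89 and 9.09 in Western and 8.99 and 8.93 in Control, a difference of -0.43 ± 0.13. The other Srf probe sets differed by -0.40 and -0.34, with both arrays lower in each. Rcan1 had 10.13 and 10.49 in Western plus DHA, against 10.75 and 10.80 in Western and 11.22 and 11.17 in Control, a difference of -0.47 ± 0.15. Rcan1 thus stood lowest in Western plus DHA and highest in Control, with no overlap between the diets. The cardiac transcription factors Gata4 and Mef2c had differences of -0.50 and -0.38 with both arrays lower. Nppa, the atrial natriuretic peptide, had 9.87 and 10.37 in Western plus DHA, against 9.96 and 11.39 in Western and 10.43 and 10.26 in Control. Its difference of -0.56 ± 0.39 rested on the Western 2 array, without which it was 0.16. Skeletal alpha actin Acta1 differed by -0.53 ± 0.28 with overlapping arrays, and by -0.09 without the Western plus DHA 2 array. The titin-binding stress protein Ankrd1 differed by -0.15 ± 0.14.

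Contractile genes had small differences, mostly below 0. Of 21 measured sarcomere genes, Myh7 included, the median difference was -0.04, and 9 (42.9%) had both Western plus DHA arrays lower, against 15.9% of all genes, and 0 both higher, against 20.9%. The myosin light chains and troponins of the ventricle (Myl2, Myl3, Tnnt2, Tnni3) lay between -0.09 and -0.01. The highest values of that list belonged to the atrial light chains Myl7 and Myl4, described with the atrial markers below. Of 23 ion channel and gap junction genes 11 (47.8%) had both arrays lower, against 15.9% of all genes, and 4 (17.4%) both higher, against 20.9%, with a median of -0.08. Kcnq1, a repolarising potassium channel, had 7.87 and 7.90 in Western plus DHA, against 8.24 and 8.33 in Western and 7.78 and 8.05 in Control, a difference of -0.40 ± 0.14. The potassium channel Kcnk3 and the channel subunit Kcnip2 differed by -0.48 and -0.36. A dimmer Kcnip2 probe set differed by -0.88 ± 0.20 with both arrays lower. Of 21 calcium cycling genes the median was -0.05, and the sarcoplasmic pump gene Atp2a2 differed by -0.01. Casq1, a calcium store protein, differed by -0.40 ± 0.17.

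Stress response lists had their members mostly below 0. Of 20 heat shock and chaperone genes 16 lay below 0, where 46.7% of all genes did. Both Western plus DHA arrays were lower for 9 (45%), against 15.9% of all genes, and higher for 0, against 20.9%. The median was -0.13 (-0.12 to -0.07 with 1 array left out). Small heat shock protein Hspb1 had 11.25 and 11.14 in Western plus DHA, against 11.51 and 11.53 in Western and 11.46 and 11.51 in Control, a difference of -0.32 ± 0.12. The co-chaperone Dnajb5 differed by -0.37 ± 0.14 and the muscle heat shock protein Hspb7 by -0.43 ± 0.24. Of 23 immediate early genes 16 lay below 0, with a median of -0.14 (-0.27 to -0.04 with 1 array left out). Both arrays were lower for 5 (21.7%) and higher for 2 (8.70%), against 15.9% and 20.9% of all genes. The orphan nuclear receptor Nr4a1 had 7.62 and 6.85 in Western plus DHA, against 8.18 and 8.41 in Western and 9.19 and 7.53 in Control, a difference of -1.06 ± 0.47. Its 2 Control arrays lay further apart than the means of Western plus DHA and Western. The early gene Ier3 differed by -0.44 ± 0.15, and Fos, with overlapping arrays, by -0.93 ± 0.52.

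Several genes of lipid handling were among the highest values. Abca1, the transporter that exports cholesterol and phospholipid from cells, had 7.07 and 7.22 in Western plus DHA, against 6.35 and 5.85 in Western and 6.94 and 6.80 in Control. Its difference was 1.05 ± 0.18, a level 2.06-fold higher, and 0.79, 0.40 and 0.11 for its other probe sets, which were dimmer. Both Western arrays were the lowest of the 6. Retsat, which saturates retinol and is a PPAR gamma target in mouse fat cells, had 10.18 and 10.71 in Western plus DHA, against 9.54 and 9.39 in Western and 10.30 and 10.29 in Control, a difference of 0.98 ± 0.18. Here the Control arrays lay between the 2 Western plus DHA arrays. Pctp, a phosphatidylcholine transfer protein, had 5.41 and 5.49 in Western plus DHA, against 4.79 and 4.89 in Western and 5.24 and 5.06 in Control, a difference of 0.61 ± 0.13.

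Acot1, a cytosolic acyl-CoA thioesterase and PPAR alpha target, stood in steps over the 3 diets. It had 6.52 and 6.72 in Western plus DHA, against 5.83 and 5.82 in Western and 5.24 and 5.03 in Control, a difference of 0.79 ± 0.14 from Western. Against Control the same Western plus DHA arrays gave 1.48 with an adjusted p of 0.0562. Pik3c2g, a class II phosphoinositide 3-kinase, had 7.10 and 7.75 in Western plus DHA, against 6.43 and 6.32 in Western and 5.33 and 5.60 in Control, a difference of 1.05 ± 0.21. Arxes1, named in mouse for its expression in fat cells, had 6.14 and 5.70 in Western plus DHA, against 5.21 and 5.18 in Western and 4.49 and 4.82 in Control, a difference of 0.73 ± 0.18. For these 3 genes the diets did not overlap, with Western plus DHA highest and Control lowest. None passed the test against Western, each with a limma adjusted p of 0.983.

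Car3, a carbonic anhydrase of fat and slow muscle, had the lowest difference of all represented genes. It read 5.78 and 5.06 in Western plus DHA, against 6.80 and 6.90 in Western and 4.98 and 5.24 in Control. The difference was -1.43 ± 0.22, a level 2.69-fold lower, and -1.79 without the Western plus DHA 1 array and -1.07 without Western plus DHA 2. The Western plus DHA and Control arrays overlapped. A dimmer Car3 probe set differed by -0.19. Idi1, an isomerase of sterol synthesis, had 6.95 and 6.78 in Western plus DHA, against 6.27 and 6.27 in Western and 6.45 and 6.66 in Control, a difference of 0.60 ± 0.13. Its other probe set differed by 0.15.

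**Figure D3:**
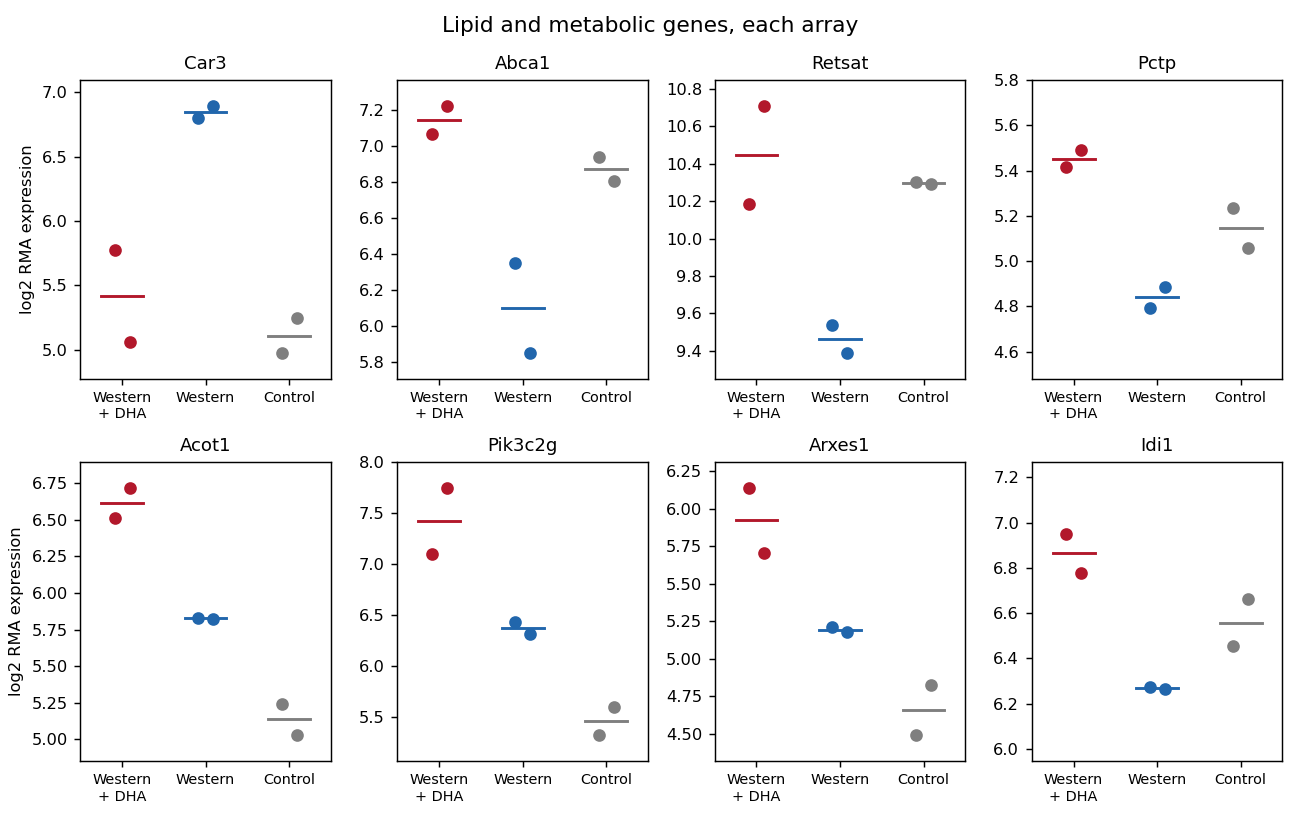
Log2 RMA level of each array (points; the left point of a diet is array 1) with the mean of the diet (line) for lipid and metabolic genes, Western plus DHA on the left, then Western and Control. Western plus DHA lies below Western for Car3 and above it for the other 7 genes, and for Acot1, Pik3c2g and Arxes1 Control is lowest.

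Counted as lists, the lipid genes did not lie on 1 side. Of all genes 20.9% had both Western plus DHA arrays higher and 15.9% both lower. Of 9 measured acyl-CoA thioesterases 6 (66.7%) had both arrays higher and 1 (11.1%) both lower, with a median of 0.12. Acot4 had 5.16 and 5.32 in Western plus DHA, against 4.02 and 4.76 in Western and 4.77 and 3.95 in Control, a difference of 0.85 ± 0.30. Acot3 differed by 0.30 ± 0.20, and Acot2, whose sequence is close to that of Acot1, by -0.03. Of 26 PPAR target genes 6 (23.1%) had both arrays higher and 5 (19.2%) both lower, near the shares of all genes, with a median of 0.02. Angptl4, which inhibits lipoprotein lipase, differed by 0.30 ± 0.18, the fatty acid transporter Cd36 by -0.06 and the mitochondrial carnitine transferase Cpt1b by -0.27. The uncoupling proteins Ucp2 and Ucp3 differed by -0.64 and -0.19. Of 20 genes of mitochondrial fatty acid oxidation 7 (35%) had both arrays higher and 5 (25%) both lower. Their median was 0.06, ranging from -0.47 for Acads to 0.18 for Eci1.

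Of the fatty acid sensors themselves 8 of 12 lay below 0, where 46.7% of all genes did. That count was 7 after quantile normalization again and after cyclic loess. Of these 12 measured genes of the PPAR, RXR and LXR family and their partners 6 (50%) had both Western plus DHA arrays lower and 0 both higher. Of all genes 15.9% had both lower and 20.9% both higher. The median of the list was -0.10 (-0.13 to -0.05 with 1 array left out). The cholesterol sensor Nr1h2 (LXR beta) had 7.23 and 6.83 in Western plus DHA, against 7.34 and 7.69 in Western, a difference of -0.49 ± 0.21, while its dimmer probe set differed by 0.05. The PPAR partners Rxrb and Rxra differed by -0.41 and -0.34, and Ppara itself by -0.18 ± 0.16 with overlapping arrays. No member reached an unadjusted p of 0.05.

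In the list of fatty acid synthesis, desaturase and elongase genes 4 of 18 (22.2%) had both arrays higher and 4 (22.2%) both lower. Of all genes 20.9% had both higher and 15.9% both lower. The desaturases that make long-chain polyunsaturated fatty acids, Fads1 and Fads2, differed by 0.31 ± 0.14 and 0.18 ± 0.12. Fads1 had 7.34 and 7.17 in Western plus DHA, against 6.85 and 7.06 in Western and 6.77 and 6.91 in Control. The elongase Elovl6 differed by 0.30 ± 0.13, and by 0.53 ± 0.15 in its dimmer probe set, with both arrays higher in each. The stearoyl-CoA desaturase Scd differed by -0.18 ± 0.13 and the fatty acid synthase Fasn by 0.01 ± 0.13. Acacb, which makes the malonyl-CoA that blocks mitochondrial fatty acid entry, had 5.69 and 5.20 in Western plus DHA, against 5.79 and 6.28 in Western and 6.51 and 6.06 in Control, a difference of -0.58 ± 0.23. Its Western plus DHA arrays were the lowest of the 6. Of 20 sterol genes 4 (20%) had both arrays higher and 2 (10%) both lower. Msmo1, a sterol methyl oxidase, had 7.38 and 7.39 in Western plus DHA, against 7.08 and 6.95 in Western, a difference of 0.37 ± 0.13, and Lss, the lanosterol synthase, differed by -0.35 ± 0.16. Acsl3, an acyl-CoA synthetase, differed by 0.39 ± 0.14 and the lipolysis inhibitor G0s2 by -0.37 ± 0.15.

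Genes that release and convert polyunsaturated fatty acids lay mostly above 0, in 22 of 28, where 53.3% of all genes did. The 6 below 0 are all named here, and most of those above are not. With 1 array left out 6 to 12 lay below 0. Of 28 eicosanoid and phospholipase genes 9 (32.1%) had both Western plus DHA arrays higher and 5 (17.9%) both lower, against 20.9% and 15.9% of all genes, and the median was 0.13 (0.04 to 0.18 with 1 array left out). Among the enzymes, Hpgd, which inactivates prostaglandins, had 4.11 and 4.32 in Western plus DHA, against 3.77 and 3.77 in Western and 3.86 and 3.68 in Control, a difference of 0.44 ± 0.14. Its level was low on all arrays, and its other probe set differed by 0.05 with overlap. The secreted phospholipase Pla2g2a differed by 0.31 ± 0.14, and the cytosolic phospholipase Pla2g4a by 0.21 ± 0.14. Pla2g5, another secreted phospholipase, had 9.21 and 9.20 in Western plus DHA, against 9.57 and 9.59 in Western and 9.63 and 9.34 in Control, a difference of -0.37 ± 0.14. The phospholipase Pla2g6 and the prostaglandin E synthase Ptges2, the second with overlapping arrays, differed by -0.28 and -0.31. Among the receptors, the prostaglandin F receptor Ptgfr had 6.47 and 7.14 in Western plus DHA, against 7.29 and 7.55 in Western and 7.39 and 7.45 in Control, a difference of -0.61 ± 0.21, and of -0.20 with overlap in its other probe set. The prostaglandin E receptors Ptger2 and Ptger4 differed by -0.26 and -0.17, each with both arrays lower, and the thromboxane receptor Tbxa2r by 0.20 with overlapping arrays.

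Glucose metabolism genes lay mostly below 0. Of 26 genes of glycolysis, glycogen and glucose uptake 19 were below 0, where 46.7% of all genes were. Both Western plus DHA arrays were lower for 10 (38.5%), against 15.9% of all genes, and higher for 1 (3.85%), against 20.9%. An unadjusted limma p under 0.05 was reached by 4, all lower (background 1.46%). The median of -0.12 was -0.31 without the Western plus DHA 1 array and -0.03 without Western plus DHA 2. Hk2, the insulin-responsive hexokinase of muscle, had 5.12 and 4.87 in Western plus DHA, against 5.34 and 5.57 in Western and 5.60 and 5.34 in Control, a difference of -0.46 ± 0.16. Hk1, the other main hexokinase of the heart, differed by -0.61 ± 0.19, against 0.06 for its dimmer probe set. The glycolytic enzymes Gpi and Eno1 differed by -0.43 ± 0.18 and -0.32 ± 0.13, and the glucose transporter Slc2a4 by -0.16 ± 0.22. Of 28 genes of pyruvate dehydrogenase and the citric acid cycle 17 lay below 0. Both arrays were lower for 10 (35.7%) and higher for 5 (17.9%). Their median was -0.01 (-0.05 to 0.03 with 1 array left out). The highest member, Pdp1, the phosphatase that activates pyruvate dehydrogenase, had 10.04 and 9.99 in Western plus DHA, against 9.67 and 9.54 in Western and 9.62 and 9.93 in Control, a difference of 0.41 ± 0.14. Pdk4, the kinase that opposes it, differed by 0.05 ± 0.13 and by -0.25 in its dimmer probe set. The respiratory chain genes had a median of -0.02 over 29 members, all within -0.22 and 0.16.

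Growth and receptor genes gave further single differences. Igf1, insulin-like growth factor, had 10.18 and 10.01 in Western plus DHA, against 9.77 and 9.62 in Western and 9.57 and 9.57 in Control, a difference of 0.40 ± 0.13, and its other probe sets differed by 0.27 and 0.15. It was the highest of 24 insulin and IGF signalling genes, of which 17 lay below 0, with a median of -0.07 (-0.16 to -0.03 with 1 array left out). In that list 8 (33.3%) had both arrays lower and 4 (16.7%) both higher, against 15.9% and 20.9% of all genes. The alpha-1 adrenergic receptors Adra1d and Adra1b differed by -0.56 ± 0.15 and -0.41 ± 0.17. Adra1d had 5.56 and 5.25 in Western plus DHA, against 5.89 and 6.05 in Western and 5.67 and 5.58 in Control. Ace, the angiotensin-converting enzyme, had 4.84 and 4.55 in Western plus DHA, against 5.13 and 5.75 in Western, a difference of -0.74 ± 0.27, while its other probe set differed by -0.15. In the same list of 17 adrenergic and angiotensin genes 5 (29.4%) had both arrays lower and 3 (17.6%) both higher, against 15.9% and 20.9% of all genes. The median of the list was 0.03 (-0.11 to 0.06 with 1 array left out). The fibrillar collagens Col1a1 and Col3a1 differed by -0.18 ± 0.36 and -0.01 ± 0.20, and the basement membrane collagen Col4a1 by -0.50 ± 0.27. The median of 29 collagen and matrix genes was -0.06, and it was -0.27 without the Western plus DHA 1 array and 0.13 without Western plus DHA 2.

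The remaining genes that met the naming rule were of mixed function. Ddah1, which breaks down an inhibitor of nitric oxide synthase, had 8.29 and 8.47 in Western plus DHA, against 8.85 and 8.91 in Western and 8.70 and 8.58 in Control, a difference of -0.50 ± 0.13. Rab1b, a small GTPase of transport between endoplasmic reticulum and Golgi, had 8.39 and 7.93 in Western plus DHA, against 8.73 and 9.32 in Western and 9.52 and 9.11 in Control, a difference of -0.86 ± 0.24. Its other probe sets differed by -0.62, -0.48 and -0.32, each with both Western plus DHA arrays lower. Other lower values were -0.63 for the kinase Hipk3, -0.69 for the mitochondrial nuclease Endog, -0.53 for the phosphoinositide phosphatase Synj2, -0.50 for the Wnt receptor Fzd8, -0.91 for the scaffold protein Shank3 and -0.97 for the plasminogen-binding Clec3b. The other probe sets of Hipk3 (0.14 and -0.01) and Clec3b (0.02) did not share that difference. Higher values were 0.93 ± 0.18 for the protease Ctsm, 0.55 ± 0.14 for Rassf9, 0.52 ± 0.13 for the deaminase Rida, 0.51 ± 0.15 for Doxl1 and 0.91 ± 0.28 for the adaptor subunit Ap1s3. Rassf9 had 5.70 and 5.70 in Western plus DHA, against 5.15 and 5.16 in Western and 5.11 and 5.44 in Control, and the diets did not overlap between Western plus DHA and Western.

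The arrays carried the RNA of ventricular muscle. Among the 11 measured cardiomyocyte markers Myl2, Myl3, Tnnt2 and Tnni3 lay between 13.58 and 14.03 on all 6 arrays. Of the 11 markers 10 had a difference below 0, where 46.7% of all genes did. Both Western plus DHA arrays were lower for 4 (36.4%) and higher for 0, against 15.9% and 20.9% of all genes. The median was -0.08 (-0.13 to -0.03 with 1 array left out). The summed linear signal of the list was 113223 and 109568 in Western plus DHA, against 115777 and 118466 in Western and 119810 and 115694 in Control. In tissue RNA, fewer cells of a type and less RNA per cell cannot be told apart. Some atrial genes varied from array to array. Myl7, the atrial regulatory light chain, had 10.09 and 9.53 in Western plus DHA, against 5.39 and 9.65 in Western and 7.64 and 8.38 in Control, and Myl4 had 9.25 and 8.73 in Western plus DHA, against 6.13 and 8.97 in Western and 7.01 and 7.61 in Control. For both the Western 1 array was lowest of the 6. Without that array the difference of Myl7 was 0.16 in place of 2.29 ± 1.08, and that of Myl4 was 0.02 in place of 1.44 ± 0.73.

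Sln, from the list of atrial markers, and Mybphl, from outside it, had the same order of arrays within Western. Sln, the calcium pump inhibitor sarcolipin, had 8.73 and 8.31 in Western plus DHA, against 7.23 and 8.16 in Western and 7.99 and 7.69 in Control, a difference of 0.82 ± 0.29 that was 0.36 without Western 1. Mybphl, a myosin-binding protein known from atrial muscle in mouse, had 5.62 and 5.56 in Western plus DHA, against 4.12 and 5.17 in Western and 4.31 and 4.42 in Control, a difference of 0.95 ± 0.28 that was 0.42 without Western 1. The summed signal of the 8 measured atrial markers was 3557 and 3268 in Western plus DHA, against 1743 and 4865 in Western and 2591 and 2463 in Control. The list did not lie on 1 side, with 4 markers above 0, 4 below and a median of -0.02. Both Western plus DHA arrays were higher for 2 (25%) and lower for 1 (12.5%), against 20.9% and 15.9% of all genes. Nppa belongs to this list as well as to the hypertrophic one, and the part of the atrial genes in its difference was not tested. Without the Western 1 array, the difference of the brighter Myh7 probe set was -0.87 and that of Nppb -0.88, and without Western 2 they were -0.95 and -0.55.

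Markers of other cell types went in either direction. Of 11 epicardial and mesothelial markers 10 lay above 0, where 53.3% of all genes did. Both Western plus DHA arrays were higher for 7 (63.6%), against 20.9% of all genes. The median was 0.22 (0.16 to 0.40 with 1 array left out). Msln, the mesothelial surface protein mesothelin, had 5.17 and 5.22 in Western plus DHA, against 4.81 and 4.74 in Western and 4.66 and 4.79 in Control, a difference of 0.42 ± 0.12. Lrrn4, also a mesothelial gene, differed by 0.55 ± 0.16, and by 0.32 and 0.01 with overlapping arrays in its other probe sets. The keratin Krt19 differed by 0.65 ± 0.23 and the uroplakin Upk1b by 0.61 ± 0.22, while the epicardial factor Wt1 differed by -0.15. The summed signal of the list was 669 and 538 in Western plus DHA, against 536 and 524 in Western and 522 and 532 in Control, so the Western plus DHA 1 array stood apart from the other 5. Of 7 erythroid markers 5 (71.4%) had both Western plus DHA arrays higher and 1 (14.3%) both lower, against 20.9% and 15.9% of all genes. Their summed signal was 9816 and 9251 in Western plus DHA, against 8202 and 8144 in Western and 6263 and 7011 in Control. The globin chaperone Ahsp had 5.32 and 5.80 in Western plus DHA, against 4.99 and 4.89 in Western and 4.61 and 4.93 in Control, a difference of 0.62 ± 0.19.

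Endothelial and smooth muscle markers lay mostly below 0, beside the lower genes above, and fibroblast markers mostly above. Of 11 endothelial markers 9 lay below 0 and 2 (18.2%) had both Western plus DHA arrays lower, against 46.7% and 15.9% of all genes. Their median of -0.17 was -0.44 without Western plus DHA 1, where all 11 lay below 0, and 0.01 without Western plus DHA 2. Their summed signal was 5874 and 4585 in Western plus DHA, against 5486 and 5711 in Western and 6124 and 5150 in Control. Of 12 smooth muscle and pericyte markers 9 lay below 0 and 2 (16.7%) had both arrays lower, with a median of -0.14 (-0.24 to -0.04 with 1 array left out). Their summed signal was 2822 and 2562 in Western plus DHA, against 2721 and 2982 in Western and 3355 and 2895 in Control. Of 12 fibroblast markers 9 lay above 0 and 3 (25%) had both arrays higher, against 53.3% and 20.9% of all genes. Their median of 0.15 was -0.10 when the Western plus DHA 1 array was left out and 0.29 without Western plus DHA 2. Their summed signal was 21159 and 17379 in Western plus DHA, against 17625 and 17213 in Western and 19711 and 16877 in Control. The endothelial nitric oxide synthase Nos3 differed by -0.64 ± 0.39 and the smooth muscle gene Smtn by -0.53 ± 0.36. The part of these cell types in the differences of other genes was not tested.

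**Figure D4:**
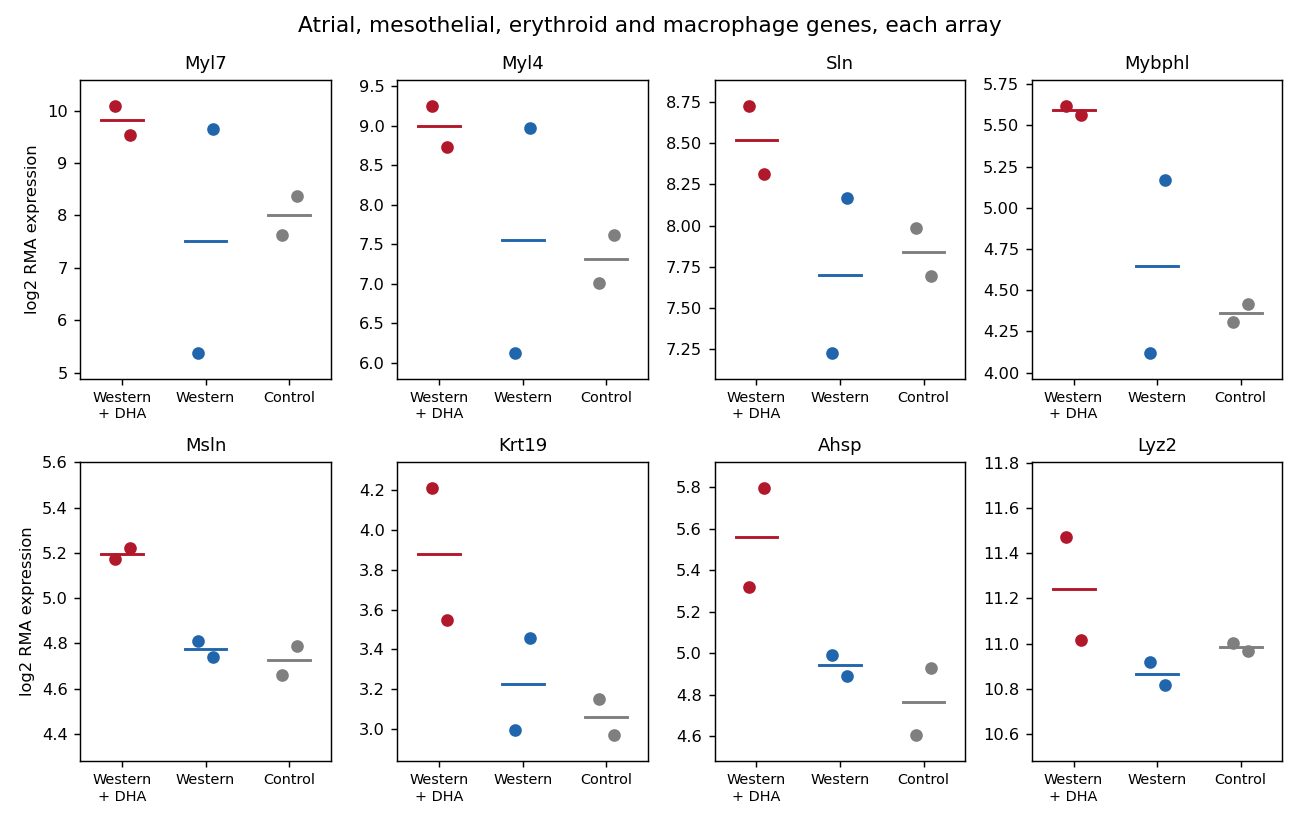
Log2 RMA level of each array (points; the left point of a diet is array 1) with the mean of the diet (line) for atrial (Myl7, Myl4, Sln, Mybphl), mesothelial (Msln, Krt19), erythroid (Ahsp) and macrophage (Lyz2) genes, Western plus DHA on the left, then Western and Control. The 4 atrial genes are lowest on array 1 within Western, and Ahsp and Msln lie above Western on both Western plus DHA arrays.

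Immune gene lists depended on the Western plus DHA 1 array, the one with the higher actin value above, whose part in them was not tested. The 11 macrophage markers had a median of 0.18, which was -0.09 without the Western plus DHA 1 array and 0.42 without Western plus DHA 2, and their summed signal was 4551 and 3147 in Western plus DHA, against 3218 and 3010 in Western and 3443 and 3166 in Control. The lysozyme Lyz2 had 11.47 and 11.02 in Western plus DHA, against 10.92 and 10.82 in Western, a difference of 0.38 ± 0.16, and the mannose receptor Mrc1 differed by 0.31 ± 0.14. The chemokine Ccl2 had 8.10 and 6.97 in Western plus DHA, against 6.87 and 6.98 in Western and 6.97 and 6.75 in Control. Its difference of 0.61 ± 0.31 thus came with 1 high array and overlap. The medians of 23 inflammatory mediators (0.13) and 26 interferon and MHC genes (0.07) were -0.07 and -0.12 without Western plus DHA 1, and 0.40 and 0.25 without Western plus DHA 2. The MHC class II activator Ciita had 5.28 and 5.11 in Western plus DHA, against 4.67 and 4.74 in Western and 4.48 and 5.01 in Control, a difference of 0.49 ± 0.18, with both arrays above the other 4, while its other probe set differed by 0.03 with overlap. The inflammatory cytokine Il18 differed by 0.42 ± 0.18 and the chemokine Cxcl12 by -0.37 ± 0.15, against 0.21 and 0.03 in its other probe sets.

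The other adipocyte markers had smaller differences than Car3, from -0.33 for Adipoq to 0.36 for Cfd. Of the 11 measured, Car3 included, 3 (27.3%) had both Western plus DHA arrays lower and 0 both higher, against 15.9% and 20.9% of all genes. Their median was -0.10. Adipoq, the fat cell hormone adiponectin, had 3.69 and 3.90 in Western plus DHA, against 3.91 and 4.36 in Western and 3.50 and 3.29 in Control, and the leptin gene Lep differed by 0.03. The summed adipocyte signal was 8692 and 7477 in Western plus DHA, against 8084 and 8108 in Western and 7439 and 7388 in Control. The fat droplet coat gene Plin1 differed by -0.10 with overlapping arrays. The part of fat tissue in the difference of Car3 was not tested. The neutrophil gene S100a9 had 6.57 and 6.53 in Western plus DHA, against 6.62 and 6.70 in Western and 5.51 and 5.89 in Control, a difference of -0.10 ± 0.15.

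**Figure D5:**
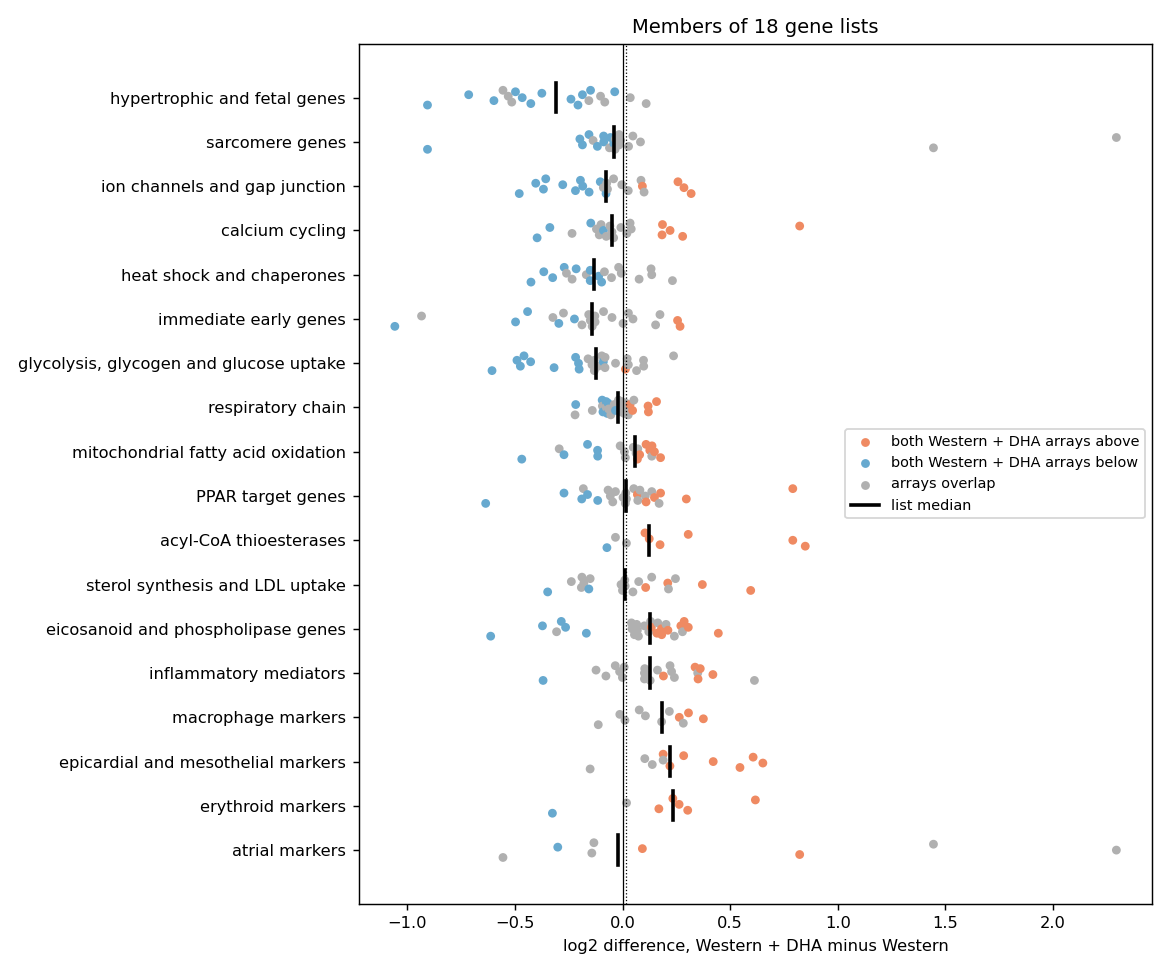
Log2 difference (Western plus DHA minus Western) of each measured member of chosen gene lists (points, coloured by whether the arrays overlap), with the list median (bar) and the median of all genes (dotted line). The hypertrophic and fetal genes have the lowest median of the lists drawn, at -0.31, and the erythroid markers the highest, at 0.23.

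Set beside Control, which shares arrays with both comparisons, the named genes took different positions. Car3 differed by 1.74 between Western and Control and by 0.31 between Western plus DHA and Control. Abca1 and Retsat differed by -0.77 and -0.83 between Western and Control and by 0.28 and 0.15 between Western plus DHA and Control. For these 3 genes the Western arrays stood apart, and Western plus DHA lay nearer to Control. Acot1, Pik3c2g and Arxes1 differed by 0.69, 0.91 and 0.54 between Western and Control and by 1.48, 1.96 and 1.26 between Western plus DHA and Control. For the brighter Myh7 probe set, Srf and Hspb1 the values were -0.09, 0.03 and 0.04 between Western and Control, and -0.99, -0.40 and -0.29 between Western plus DHA and Control. Other load genes were not level between Western and Control, with -0.40 for the dimmer Myh7 probe set, -0.42 for Rcan1, -0.36 for Ccn2, -0.27 for Ankrd23 and 0.34 for Nppb. The hypertrophic list had a median of -0.30 for Western plus DHA against Control and -0.05 for Western against Control.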

How the data were processed

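Left ventricular RNA pooled from 5 rats per pool was hybridised to Affymetrix arrays, 2 per diet. Per the submitters' processing notes the authors used RMA and R 2.11.0, and they deposited log2 expression values of 31099 probe sets. Since RMA gives all arrays 1 distribution of values, the data cannot show overall RNA level. No source used here gives the earlier steps or a genome build. The authors also deposited p-values from a test they do not name, and in the authors' deposited table the lowest adjusted p for Western plus DHA against Western was 0.0743, with 0 probe sets under 0.05.

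The 57 control probe sets were left out. The platform annotation gave 1 symbol to 20826 of the 31042 remaining probe sets, several to 436 and none to 9780, and the last 2 kinds were not named. A gene was represented by its probe set with the highest mean over 6 arrays. Differences were tested on the deposited log2 values by a moderated linear model with 1 mean per diet (limma 3.58.1, R 4.3.3, 3 residual and 5.28 prior degrees of freedom), with Benjamini-Hochberg adjustment over all probe sets. These steps were tested on simulated data. P-values measure only the spread between the 2 arrays of a diet, which may be different pools or technical repeats, and the number of arrays limits the precision. No batch is named in the labels.

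Genes were named by a rule. Candidates had their higher diet mean at or above 5.34, the median of all probe sets, and arrays that did not overlap. Of those with a difference of at least 0.5 the 12 with the smallest p per direction were named, then the 6 candidates with the largest difference per direction, up to 4 members of a described list by smallest p, and a panel of 30 genes, of which 28 were measured and 2 are not analysed here. Members of lists named beyond this were chosen after their values were seen. There were 44 gene lists, 31 of programmes and 13 of cell type markers, with 735 of 831 genes measured. The comparison, the panel and the lists were chosen with earlier results of these data known. Promoters came from RefSeq (GRCr8), matched by symbol for 3 of the 3 genes shown. The alternatives were quantile, cyclic loess and median normalization, the replicate number as a block, no dim probe sets, the 4 arrays alone, an intensity trend, array weights, representative probe sets, other probe sets of a gene and leaving out each array.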

Additional observations from a re-analysis of the deposited data

How the results depend on the processing

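The count of called probe sets was 1, the dimmer Myh7 one, in place of 0 with array weights, an intensity trend, median centring or quantile normalization again, and 0 under all other settings run, with lowest adjusted p of 0.0799 after cyclic loess, 0.345 with the 4 arrays alone, 0.104 without dim probe sets and 0.967 with representative probe sets only, which leave that probe set out. The cause was not tested. The count under an unadjusted p of 0.05 was 611 without dim probe sets and 513 with representative probe sets only, which are fewer, and 476 (without Western 2) to 2392 (without Western plus DHA 1) with 1 array left out. The share higher among them was 49.1%, against 35.8% without dim probe sets and 58.9% with representative probe sets. Probe sets at least 0.5 higher with arrays that do not overlap numbered 47 and 59 in the same 2 settings, and 189 (without Western 2) to 482 (without Western plus DHA 1) with 1 array left out. Those lower numbered 72 with representative probe sets and 244 (without Western 2) to 980 (without Western plus DHA 1). Leaving out a Control array leaves its spread unmeasured and gives the fit of the 4 arrays.

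Same-numbered arrays did not deviate together in every pair of diets, with correlations across probe sets of -0.228 for Western plus DHA and Western, 0.202 for Western plus DHA and Control and -0.206 for Western and Control. A replicate block gave 0 called probe sets, a lowest adjusted p of 0.0790 and 1124 under an unadjusted p of 0.05.

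Of 1558 alternatives over 101 named genes, 1532 kept direction and side of the threshold, 4 passed it (the Myh7 settings above) and 22, in 16 genes, turned sign. Much of this count was fixed in advance and does not measure robustness. The replicate block, the 4 arrays alone, the intensity trend, array weights, leaving out dim probe sets and leaving out a Control array keep each difference as it was. No representative probe set had a limma adjusted p under 0.983, so a change of side was unlikely. Other probe sets gave 0.14 for Hipk3, 0.0211 for Clec3b, -0.41 for Myh6, -0.25 for Pdk4, 0.0517 for Nr1h2, 0.0324 for Ier5, 0.0618 for Hk1, -0.29 for Nr1d2, -0.0487 for RT1-Db1, and 0.21 and 0.0274 for Cxcl12. Col3a1 gave 0.0265 after quantile normalization again. With 1 array left out the ranges were -0.00169 to 0.0570 for Myh6, -1.27 to 0.16 for Nppa, -0.27 to 0.24 for Col3a1, -0.13 to 0.0190 for Cd36, -0.0713 to 0.0920 for Fasn, -0.0399 to 0.14 for Pdk4, -0.0154 to 0.20 for Dbp and -0.62 to 0.0202 for Bmal1.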

Other observations

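Circadian and steroid-responsive genes were not described above. Of 17 clock genes 5 (29.4%) had both Western plus DHA arrays higher and 1 (5.88%) both lower, against 20.9% and 15.9% of all genes. Their median was 0.03, and it ran from -0.05 to 0.13 with 1 array left out, with 2 to 11 genes below 0. Bhlhe41, a repressor of the clock, had 8.45 and 8.63 in Western plus DHA, against 8.33 and 7.99 in Western and 8.35 and 8.47 in Control, a difference of 0.39 ± 0.15. Nr1d2, a nuclear receptor of the clock, differed by 0.30 ± 0.13, and by 0.29 and -0.29 in its other probe sets, the second dimmer. The clock genes Dbp and Bmal1 differed by 0.09 and -0.30 with overlapping arrays. Of 20 glucocorticoid and fasting genes 10 lay above 0 and 10 below, with a median of 0.00. Both arrays were higher for 7 (35%) and lower for 4 (20%). The highest member was Hsd11b1, which regenerates active glucocorticoid. It had 10.07 and 9.67 in Western plus DHA, against 9.61 and 9.37 in Western and 9.44 and 9.37 in Control, a difference of 0.38 ± 0.16. Antioxidant genes lay mostly below 0, in 20 of 28, against 46.7% of all genes. Gstm2, a glutathione transferase of muscle, had 8.91 and 8.51 in Western plus DHA, against 9.13 and 9.58 in Western and 9.68 and 9.10 in Control, a difference of -0.64 ± 0.24. The antioxidant median of -0.11 was 0.01 at the upper end of its range with 1 array left out. None of these genes passed the limma test, each with an adjusted p of at least 0.983.

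The second and further probe sets of genes were counted apart from the probe sets that represent them, with no test of the difference. Among those at or above the median level, 2891 in all, 4 were at least 0.5 higher with arrays that did not overlap and 91 were at least 0.5 lower, and 61.6% lay below 0. Among the 9438 representative probe sets at such levels there were 32 higher and 64 lower, and 50.3% lay below 0. The share below 0 among the further probe sets was 58.1% after quantile normalization again, 60.6% after cyclic loess and 58.2% to 62.6% with 1 array left out, a comparison added after the data were seen. The smallest p among them belonged, after Myh7, to Gga2, Sox4, App and Akap1, named after their values were seen. App had 7.11 and 6.92 in Western plus DHA, against 7.73 and 7.71 in Western and 7.77 and 7.83 in Control, a difference of -0.71 ± 0.13, while its representative probe set differed by -0.04. Fhl1, a LIM protein of muscle, had 8.66 and 8.59 in Western plus DHA, against 9.29 and 9.29 in Western, a difference of -0.66 ± 0.15, while its representative probe set differed by -0.10. The 3′ minus 5′ difference of the Gapdh control probe sets was 0.45 and 0.47 in Western plus DHA, against 0.36 and 0.41 in Western and 0.68 and 0.30 in Control. Its part in these differences was not tested.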
